A study of Mus musculus with 16 samples.

Results

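The FoxO factors Foxo1, Foxo3, Foxo4 and Foxo6 and the feedback targets Irs2, Pik3ip1, Txnip and Bcl6 make up a set of 8 genes. They were found by symbol among the 55471 lines of the day 5 table and of the day 7 table, and each symbol stood on 1 line in both. All 16 RNA-seq libraries were used, 4 for each of 4 groups. NSC (neural stem cells) from the cortices of C57BL/6 mouse embryos at E15-16 were grown with bFGF as a monolayer and infected with a lentivirus. The shRNA-CON groups carried a scrambled shRNA and the shRNA-RUS groups an shRNA against the long noncoding RNA RUS, which the tables list as Gm20754. Libraries were made 5 and 7 days after seeding. Differentiation medium replaced the bFGF medium on day 5, so the day and the medium cannot be told apart. Cells came from pooled embryos of both sexes and were passaged before use, only 1 shRNA sequence against RUS was used, and the series counts 4 experiments per condition without saying whether these came from separate cell preparations. Each p-value therefore measures the spread between these libraries, which may be technical.

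FoxO factors are forkhead transcription factors that sit at the end of the insulin and IGF pathway. When growth factor receptors activate PI3K, the kinase Akt phosphorylates the FoxO factors, which then leave the nucleus. When PI3K signalling is low they stay in the nucleus and switch on genes for cell cycle arrest, autophagy, stress resistance and apoptosis. Some of their targets act back on the pathway: Irs2 carries the receptor signal to PI3K, and Pik3ip1 blocks PI3K itself. FoxO factors are known for keeping the neural stem cell pool of the adult brain from being used up. RNA levels say nothing about phosphorylation or location of the proteins, and neither was measured here.

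Levels are given as scaled TPM: TPM (a unit that accounts for transcript length and sums to 1000000 in each library) divided by a library factor that aligns the 16 libraries. A gene was called when limma's adjusted p was under 0.05. RUS itself was low. The authors report reduced RUS by RT-qPCR with the same shRNA, a measure not used here. On day 5 the TPM of RUS was 0.24, 0.11, 0.18 and 0.16 in shRNA-CON and 0.05, 0, 0.12 and 0.32 in shRNA-RUS. The library labelled shRNA-RUS replicate 4 thus read above each of the 4 controls, although these readings are near 0 and depth is unknown. On day 7 RUS was at 0.70, 0.72, 0.26 and 0.54 in shRNA-CON and 0.54, 0.38, 0 and 0.04 in shRNA-RUS. There, replicates 1 and 2 of shRNA-RUS read above replicate 3 of shRNA-CON. The mean in shRNA-RUS was 71.0% of the control on day 5 (exact two-sided permutation p = 0.543) and 43.2% on day 7 (exact p = 0.143), where 4 against 4 libraries can reach 0.0286 at best. The day 5 differences of the 8 genes and the day 5 counts of the lists are therefore given with and without the library labelled shRNA-RUS replicate 4. Of the 22 list genes named below for day 5, 21 kept their calls without it and Ddit4 did not. All 8 neural stem and radial glia markers were above 0 in every library, as were all 7 neuron, 6 astrocyte, 7 oligodendrocyte lineage and 8 microglia markers. Of 7 endothelial markers, 3 were above 0 in every library and Cldn5 and Tie1 stayed below 0.1 scaled TPM, and the sum, mostly Kdr, was 5.598 to 6.60 in the controls of both days and 2.50 to 4.01 with the shRNA against RUS. Of the neural stem and radial glia markers, 4 of 8 passed as higher and 2 as lower on day 5 (list median 0.10 on the log2 scale), where 14.8% of all genes tested were higher and 17.9% lower. These counts were 2 and 3 on the TPM as deposited (list median −0.06), 2 and 2 after quantile normalization (−0.03) and 4 and 1 without the library labelled replicate 4. All genes then stood at 1768 higher and 6037 lower, at 3342 and 3327, and at 3929 and 4593. The sum of these 8 markers was 12548 to 14687 in the day 5 controls and 17830 to 21321 with the shRNA against RUS. Most of it came from Vim and Fabp7, while Nes was at −0.87 (adjusted p = 3.46e-05). The astrocyte sum, most of it Gfap, was 2548 to 2673 in the day 5 controls and 3382 to 3613 with the shRNA against RUS. There, 1 of 6 markers passed as higher and 2 as lower with and without that library. Of the 7 oligodendrocyte lineage markers, 3 passed as lower on day 5, or 4 without that library (list median −0.73 with it). On day 7, 5 passed as lower (list median −0.50), where 25.8% of all genes were lower. The day 7 sum of these markers, most of it Olig1, was 297 to 331 in controls and 192 to 213 otherwise. The summed level of the microglia markers on day 7 was 269 to 296 in shRNA-CON and 123 to 153 in shRNA-RUS. Of 7 fibroblast and mural markers tested, 4 passed as higher and 0 as lower on day 7 (list median 0.33), where 23.4% of all genes were higher. After quantile normalization 6 passed as higher, beside 6061 of 24606 genes. On day 5, 1 passed each way, or 0 higher and 1 lower without that library. The day 5 sum of these markers, most of it Acta2, was 348 to 381 in controls and 283 to 329 otherwise. Their day 7 sum was 202 to 227 in shRNA-CON and 233 to 303 in shRNA-RUS. Of 7 neuron markers, 2 passed each way on day 5, with and without that library, and 3 as higher and 2 as lower on day 7. The part of these cell types in the results was not tested.

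Foxo3, Foxo4, Pik3ip1 and Bcl6 were higher in shRNA-RUS than in shRNA-CON on both days, and Irs2 was lower on both days. On day 5, 4 of the 8 genes were called higher and 1 lower, where 14.8% of all 22581 genes tested were called higher and 17.9% lower. The counts were 4 and 3 without the library labelled replicate 4, where 3929 of 22583 genes were called higher and 4593 lower. On day 7, 5 were called higher and 2 lower, where 23.4% of 24606 genes were called higher and 25.8% lower. The median log2 fold change of the 8 genes was 0.11 on day 5 and 0.43 on day 7, and that of all genes tested was −0.06 and −0.03. On the day 5 TPM as deposited, without library factors, the median of all genes was −0.21 and 1768 genes were called higher against 6037 lower, instead of 3349 and 4034. With that scale Foxo4 was no longer called on day 5 and Txnip was, as given below. Scaling to the 75th percentile gave 2418 higher and 4859 lower. In these bulk libraries, fewer cells of a type and less RNA per cell cannot be told apart.

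**Figure D1:**
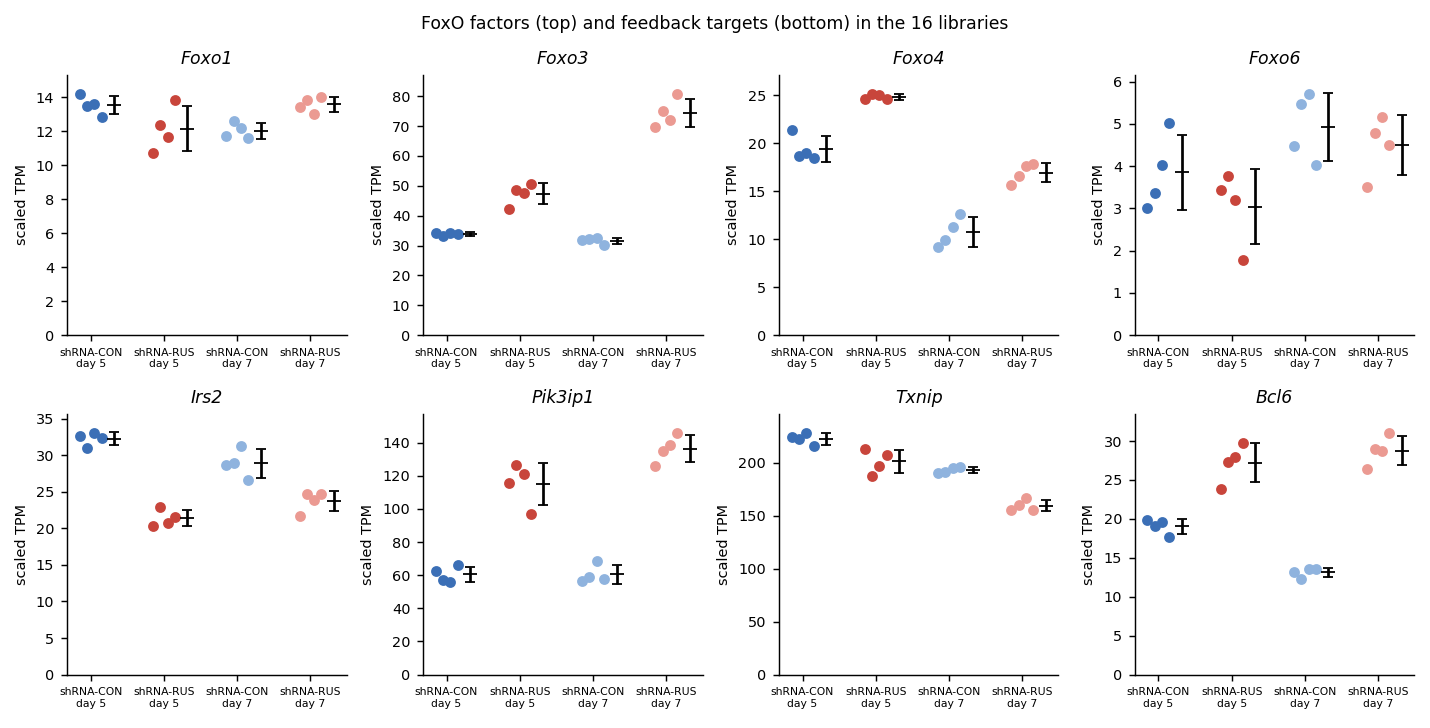
Scaled TPM of the 8 genes in each of the 16 libraries. Each panel is 1 gene with an axis from 0, points are libraries coloured by group, and black bars give the mean ± SD of 4 libraries. Foxo3 lies at 30.2 to 34.3 in all control libraries, at 42.4 to 50.7 for shRNA-RUS on day 5 and at 69.5 to 80.8 on day 7.

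Foxo3 (GRCm38 chr10:42181841-42276755, minus strand) was the most abundant FoxO transcript in all 4 groups. In replicates 1 to 4, its scaled TPM on day 5 was 34.3, 33.05, 34.3 and 33.9 in shRNA-CON and 42.4, 48.6, 47.6 and 50.7 in shRNA-RUS. The day 7 values were 31.7, 32.1, 32.5 and 30.2 in shRNA-CON and 69.5, 74.998, 72.2 and 80.8 in shRNA-RUS. The shRNA-RUS libraries of each day lay above all controls, and those of day 7 above those of day 5. Foxo3 was 1.39-fold higher on day 5 (log2 0.48 ± 0.06 SE, adjusted p = 0.000477, limma) and 2.37-fold higher on day 7 (95% confidence interval 2.18 to 2.57, adjusted p = 2.14e-07). Without the library labelled shRNA-RUS replicate 4 the day 5 difference was 0.45 on the log2 scale (adjusted p = 0.000651). On day 7, 97.3% of all genes tested had a smaller log2 fold change.

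Foxo4 (chrX:101254528-101260873, plus strand) was higher in shRNA-RUS on each day but lower on day 7 than on day 5 with either shRNA. On day 5 its scaled TPM was 21.4, 18.6, 19.0 and 18.5 in shRNA-CON and 24.6, 25.2, 25.0 and 24.6 in shRNA-RUS. On day 7 it was 9.23, 9.88, 11.3 and 12.7 in shRNA-CON and 15.7, 16.6, 17.7 and 17.9 in shRNA-RUS. The ranges of the 4 groups did not overlap, and shRNA-RUS on day 7 lay below shRNA-CON on day 5. As deposited, the TPM ranges of each day stayed apart only on day 7, with 17.6 to 21.8 in the day 5 controls, 20.8 to 22.9 in shRNA-RUS on day 5 and 16.9 to 19.6 on day 7. Foxo4 was 1.28-fold higher on day 5 (log2 0.36 ± 0.06 SE, adjusted p = 0.00173) and 1.59-fold higher on day 7 (log2 0.67 ± 0.10 SE, adjusted p = 0.000297). On the TPM as deposited the day 5 difference was 0.20 and was not called (adjusted p = 0.0806), and without the library labelled shRNA-RUS replicate 4 it was 0.37 (adjusted p = 0.0024).

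Foxo1 (chr3:52268336-52353221, plus strand) changed little. Its scaled TPM on day 5 was 14.2, 13.5, 13.6 and 12.9 in shRNA-CON and 10.7, 12.4, 11.6 and 13.9 in shRNA-RUS, and the groups overlapped. On day 7 they read 11.7, 12.6, 12.2 and 11.6 in shRNA-CON and 13.4, 13.8, 13.03 and 14.0 in shRNA-RUS, without overlap. The log2 fold change was −0.16 on day 5 (95% confidence interval −0.35 to 0.03, adjusted p = 0.181) and 0.19 on day 7 (0.08 to 0.30, adjusted p = 0.0108). Without the library labelled shRNA-RUS replicate 4, which had the highest Foxo1 of its group, the day 5 value was −0.22 and was called (adjusted p = 0.0389). With scaling to the 75th percentile the day 7 value was 0.13 and was not called (adjusted p = 0.0709).

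Foxo6 (chr4:120267079-120287349, minus strand), a FoxO factor known mostly from the brain, was the least abundant of the 8 genes in every group. Its scaled TPM was 3.002 to 5.01 for shRNA-CON on day 5 and 1.77 to 3.76 for shRNA-RUS, and 4.04 to 5.71 and 3.51 to 5.16 on day 7. All neighbouring groups overlapped. No difference was called, but the intervals were wide: the log2 fold change was −0.35 on day 5 (95% confidence interval −0.90 to 0.19, adjusted p = 0.303) and −0.12 on day 7 (−0.45 to 0.22, adjusted p = 0.562). The lowest value, 1.77, came from the library labelled shRNA-RUS replicate 4 on day 5, and without it the day 5 fold change was −0.12.

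Summed over the 4 FoxO genes, scaled TPM was 70.7 ± 1.79 (SD, n = 4) for shRNA-CON on day 5 and 87.4 ± 4.39 for shRNA-RUS. On day 7 it was 59.3 ± 1.97 in shRNA-CON and 109 ± 6.21 in shRNA-RUS. The share of Foxo3 in this sum was 48.0% ± 0.63 for shRNA-CON on day 5 and 54.1% ± 1.44 for shRNA-RUS, and 53.3% ± 1.66 and 68.0% ± 0.877 on day 7. The share of Foxo1 was 19.2% ± 0.613 and 13.9% ± 0.934 on day 5, and 20.3% ± 0.565 and 12.4% ± 0.54 on day 7. Foxo4 held 15.5% ± 0.58 of the sum in shRNA-RUS on day 7 and between 18.1% and 28.5% on average in the other 3 groups. In these sums Foxo3 held a larger share and Foxo1 a smaller one with the shRNA against RUS on each day.

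**Figure D2:**
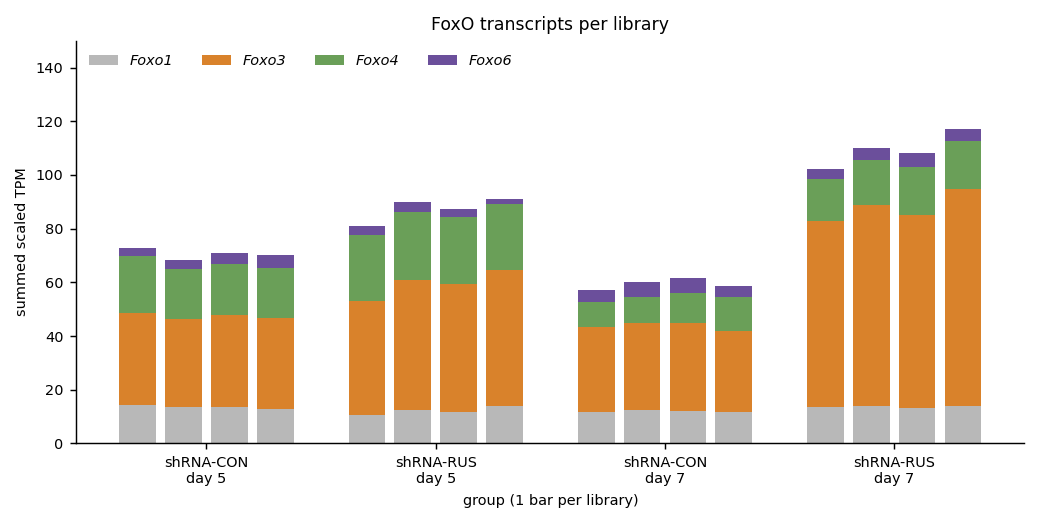
Summed scaled TPM of Foxo1, Foxo3, Foxo4 and Foxo6, 1 bar per library, with the bars grouped by shRNA and day and the axis starting at 0. The sum lies between 57.2 and 61.7 in shRNA-CON on day 7 and between 102 and 117 in shRNA-RUS on day 7, and Foxo3 is the largest part of every bar.

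For the feedback targets, the 250 bases before and 50 after the annotated start were searched on both strands for GTAAACA, the core of the FoxO-family element, and CAAAACA, the core of the insulin response element. RefSeq promoter windows (GRCm38.p6) were at hand for 6 of the 8 genes, with 2 starts for Bcl6, and not for Foxo4 and Foxo6. GTAAACA stood in 3.65% and CAAAACA in 6.28% of all 32851 windows. Starts are those of RefSeq, which for Irs2 lies outside the gene as GENCODE places it. Txnip held 1 GTAAACA on the plus strand, 121 to 115 bases before its start, and Irs2 held 1 CAAAACA on its opposite strand, 37 to 31 bases before its start. The windows of Foxo1, Foxo3, Pik3ip1 and Bcl6 held neither. Txnip also held a pair of CACGNG half-sites on 1 strand with 5 bases between them, the layout of the carbohydrate response element bound by the glucose-sensing factors of the Mlx family, 85 to 80 and 74 to 69 bases before its start. Such a pair stood in 16 of all windows, or 0.049%. Single half-sites stood in 27.5% of all windows, among them those of Irs2, Foxo3, Pik3ip1 and 1 of the 2 of Bcl6, and 1 of them is in the Irs2 stretch in lower case. None of the matches in capitals overlapped another. They are runs of letters, not measured binding sites. Both stretches are printed 5′ to 3′ on the strand of the gene because they hold the matches, which are in capitals, with Txnip at chr3:96557816-96557908 (plus strand) and Irs2 at chr8:11008940-11008986 (minus strand).
Txnip: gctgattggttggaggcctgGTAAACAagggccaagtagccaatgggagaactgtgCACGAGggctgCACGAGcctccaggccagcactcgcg
Irs2: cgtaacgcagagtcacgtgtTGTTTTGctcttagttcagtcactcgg

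Irs2 (chr8:10984681-11008458, minus strand), the adaptor that couples insulin and IGF receptors to PI3K, was lower in shRNA-RUS on both days. Its scaled TPM on day 5 was 32.6, 31.0, 33.0 and 32.4 in shRNA-CON and 20.4, 23.0, 20.8 and 21.5 in shRNA-RUS. Day 7 gave 28.6, 29.0, 31.3 and 26.6 in shRNA-CON and 21.8, 24.7, 23.9 and 24.8 in shRNA-RUS. The shRNA-RUS libraries lay below all controls of their day, and the distance was smaller on day 7. Irs2 stood at 0.666 times the control level on day 5 (95% confidence interval 0.609 to 0.728, adjusted p = 0.0001) and at 0.832 times on day 7 (0.752 to 0.919, adjusted p = 0.00669). Without the library labelled shRNA-RUS replicate 4 the day 5 log2 fold change was −0.59, as with it. A gene on the opposite strand, 9530052E02Rik, overlaps Irs2, and it was at 0.25 to 1.92 TPM. The sources used here do not state whether reads were counted by strand.

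Pik3ip1 (chr11:3330401-3342971, plus strand), a membrane protein that inhibits the catalytic subunit of PI3K, was the member with the largest rise on day 5. Its scaled TPM on day 5 was 62.3, 57.2, 56.1 and 66.2 in shRNA-CON and 116, 126, 121 and 96.7 in shRNA-RUS. On day 7 it was 56.5, 59.1, 68.8 and 57.6 in shRNA-CON and 126, 135, 139 and 146 in shRNA-RUS. The ranges of the controls of both days overlapped, and all shRNA-RUS libraries lay above them. Pik3ip1 was 1.90-fold higher on day 5 (95% confidence interval 1.65 to 2.19, adjusted p = 0.000109) and 2.28-fold higher on day 7 (2.04 to 2.54, adjusted p = 1.16e-06). The lowest shRNA-RUS value on day 5 was that of the library labelled replicate 4, and without it the log2 fold change was 1.01 instead of 0.92. The opposite-strand gene Gm12592 was at 1.13 to 2.02 TPM.

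Txnip (chr3:96557957-96561883, plus strand) encodes the thioredoxin-interacting protein, an arrestin-like protein that binds thioredoxin and lowers glucose uptake. It was the most abundant of the 8 genes in all groups. On day 5 its scaled TPM was 224, 222, 228 and 215 in shRNA-CON and 213, 188, 197 and 207 in shRNA-RUS. At day 7 it stood at 190, 192, 195 and 196 in shRNA-CON and 156, 160, 166 and 155 in shRNA-RUS. The ranges did not overlap on either day. The difference was small on day 5, with a log2 fold change of −0.14 (95% confidence interval −0.26 to −0.03, adjusted p = 0.0575), and was called on day 7 at −0.26 (−0.34 to −0.19, adjusted p = 0.00013). The day 5 value was −0.30 on the TPM as deposited (adjusted p = 0.00586) and −0.16 without the library labelled shRNA-RUS replicate 4 (adjusted p = 0.0417), and was called in both. Gm15441 overlaps Txnip on the opposite strand and was at 0.52 to 2.28 TPM.

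Bcl6 (chr16:23965052-23988852, minus strand) is a transcriptional repressor known in the cortex for driving neurogenesis by silencing Notch target genes. On day 5 its scaled TPM was 19.9, 19.1, 19.6 and 17.7 in shRNA-CON and 23.8, 27.3, 27.9 and 29.8 in shRNA-RUS. On day 7 it was 13.1, 12.3, 13.6 and 13.5 in shRNA-CON and 26.4, 29.0, 28.8 and 31.0 in shRNA-RUS. The controls fell from day 5 to day 7, while the ranges of the shRNA-RUS groups overlapped after scaling. On the TPM as deposited those ranges were apart, at 20.1 to 27.7 on day 5 and 28.5 to 34.1 on day 7. Bcl6 was 1.42-fold higher in shRNA-RUS on day 5 (log2 0.51 ± 0.08 SE, adjusted p = 0.00107) and 2.20-fold higher on day 7 (95% confidence interval 2.01 to 2.41, adjusted p = 5.83e-07). Without the library labelled shRNA-RUS replicate 4 the day 5 log2 fold change was 0.47 (adjusted p = 0.00156).

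Txnip was highest and Foxo6 lowest of the 8 genes in each group. In shRNA-CON on day 5, Foxo6 was lowest, followed by Foxo1, Bcl6, Foxo4, Irs2, Foxo3, Pik3ip1 and Txnip by mean scaled TPM, and of these neighbours only Bcl6 and Foxo4 overlapped, although Irs2 reached 33.03 and Foxo3 began at 33.05, and both overlapped on the TPM as deposited. In shRNA-RUS on day 7 the order was Foxo6, Foxo1, Foxo4, Irs2, Bcl6, Foxo3, Pik3ip1 and Txnip, with no overlap between neighbours. Pik3ip1 then reached 146 and the lowest Txnip value was 155. In shRNA-CON on day 7 the highest Pik3ip1 was 68.8 and the lowest Txnip 190.

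In the control cells, Foxo4 and Bcl6 were lower on day 7, in differentiation medium, than on day 5. Of the 8 genes, 5 were called lower on day 7 and 0 higher, where 21.6% of 23789 genes were called lower and 26.9% higher. Foxo4 stood at 0.554 times its day 5 level (95% confidence interval 0.491 to 0.626, adjusted p = 4.70e-07) and Bcl6 to 0.691 times (0.624 to 0.764, adjusted p = 9.26e-06). Foxo1 (log2 −0.17, adjusted p = 0.0477) and Irs2 (log2 −0.16, adjusted p = 0.0302) were just called lower, and Foxo1 lost the call in 17 of 25 alternatives and Irs2 in 8. Txnip was called lower by 0.20 on the log2 scale (adjusted p = 0.000548), but the value was −0.05 on the TPM as deposited (adjusted p = 0.423) and turned to 0.0048 after quantile normalization (adjusted p = 0.955). Foxo3 (log2 −0.10, 95% confidence interval −0.22 to 0.02, adjusted p = 0.159), Foxo6 (0.36, −0.10 to 0.81, adjusted p = 0.187) and Pik3ip1 (95% confidence interval −0.18 to 0.18, adjusted p = 1) were not called. On the TPM as deposited 1 member was called higher, Foxo6, and 2 lower, and 8573 genes were called higher against 3434 lower, instead of 6394 and 5133. On scaled TPM, cell type markers moved between these days too. Of 7 fibroblast and mural markers tested, 6 were called lower and 0 higher (list median −1.29), and of 6 astrocyte markers 4 and 1 (−0.99). Of 8 neural stem and radial glia markers, 4 were lower and 1 higher (−0.36). Called higher and lower were 5 and 1 of 7 neuron (0.62), 4 and 1 of 7 oligodendrocyte lineage (1.20) and 6 and 0 of 8 microglia markers (0.96). The part of these cell types was not tested.

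**Figure D3:**
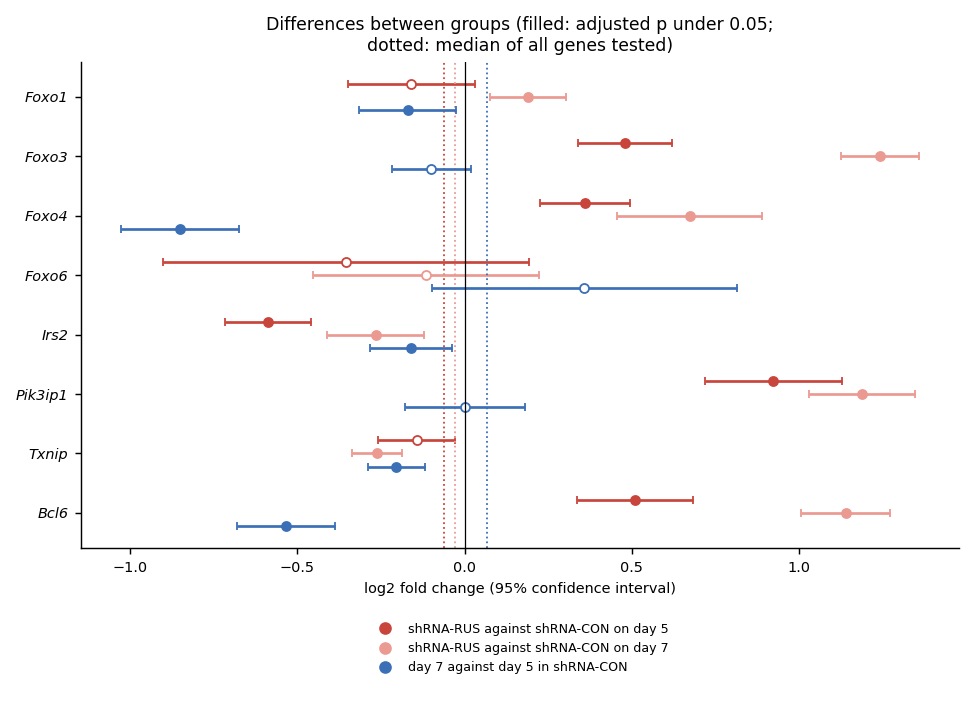
Log2 fold changes of the 8 genes with 95% confidence intervals for shRNA-RUS against shRNA-CON on day 5 and on day 7, and for day 7 against day 5 in shRNA-CON. Filled points have an adjusted p under 0.05 and dotted lines are the medians of all genes tested. Foxo4 and Bcl6 lie to the right of 0 in both knockdown comparisons and to the left in the comparison of the days.

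Whether the knockdown effect differed between the days was tested as an interaction over the 16 libraries. The effect was higher on day 7 for 4 of the 8 genes and lower for 0, where 15.2% of 23789 genes were called higher and 14.6% lower. These were Foxo3, Bcl6, Foxo1 and Irs2. For Foxo3 the log2 difference of the effects was 0.75 ± 0.08 SE (adjusted p = 1.04e-05) and for Bcl6 0.62 ± 0.10 (adjusted p = 0.000275). For Foxo1 it was 0.34 ± 0.10 (adjusted p = 0.0147), although its day 5 difference was not called, and for Irs2 0.31 ± 0.08 (adjusted p = 0.00951), since Irs2 was closer to the control on day 7. Foxo4 (0.30, 95% confidence interval 0.05 to 0.55, adjusted p = 0.0661), Pik3ip1 (0.25, −0.00 to 0.51, adjusted p = 0.127), Txnip (−0.13, −0.25 to −0.01, adjusted p = 0.0944) and Foxo6 (0.23, −0.42 to 0.87, adjusted p = 0.618) were not called. Foxo4 and Pik3ip1 were called with each of the other 3 scalings, so that 6 of the 8 genes were then called higher. Over all genes, 3626 were called higher and 3464 lower, against 5700 and 2053 on the TPM as deposited, 3556 and 3412 after quantile normalization and 3759 and 2895 with the 75th percentile. Without the library labelled shRNA-RUS replicate 4 of day 5 the same number of members was called, 4 higher and 0 lower.

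Of the insulin, PI3K and Akt signalling list of 28 genes, 27 were tested on day 5. There, 3 passed as higher and 5 as lower (list median −0.02 on the log2 scale), near the 14.8% and 17.9% of all genes, whose median was −0.06. On the TPM as deposited these counts were 1 and 8, and without the library labelled shRNA-RUS replicate 4 they were 3 and 6. All genes then stood at 1768 higher and 6037 lower, and at 3929 and 4593. Akt2, a kinase that phosphorylates FoxO factors, was 0.65 higher on the log2 scale (adjusted p = 8.41e-05) and Akt1 0.27 higher (adjusted p = 0.017), a call that was lost with each of the other 3 scalings. Pik3r2, a regulatory PI3K subunit, was 0.36 higher (adjusted p = 0.0438) and lost the call in 12 of 18 alternatives. Insr, the insulin receptor, stood at 0.537 times the control level (log2 −0.90, adjusted p = 0.0009) and Pik3r1, the main regulatory subunit, at 0.576 times (log2 −0.79, adjusted p = 0.000269). Sgk3, a kinase related to Akt, was lower by −0.63 (adjusted p = 0.000995).

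On day 7, 26 genes of this list were tested, of which 14 were called higher and 5 lower (list median 0.19), beside 23.4% and 25.8% of all genes, whose median was −0.03. Akt2 was 1.90-fold higher (log2 0.93, adjusted p = 4.43e-07) and Pik3r2 0.75 higher on the log2 scale (adjusted p = 0.000112). Phlpp1, a phosphatase that removes an activating phosphate from Akt, was 0.78 higher (adjusted p = 1.61e-06). The difference was not called for Insr (log2 −0.09, 95% confidence interval −0.22 to 0.05, adjusted p = 0.263) and Pik3r1 (−0.08, −0.16 to 0.00, adjusted p = 0.0958). Inpp5d (log2 −1.16, adjusted p = 7.82e-06), Igf1 (−0.68, adjusted p = 0.000449) and Pik3r3 (−0.67, adjusted p = 2.92e-05) had the largest decreases. Inpp5d, a phosphatase of blood and microglial cells, and Igf1, a growth factor that microglia make, are also genes of that cell type. All 8 microglia markers were called lower on day 7, with a median of −0.94, and 7 of 8 after quantile normalization. The part of microglia in these 2 values was not tested.

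Of the other FoxO target genes, a list of 32, 27 were tested on day 5, of which 10 passed as higher and 4 as lower at a list median of 0.18, beside 14.8% and 17.9% of all genes and a median of −0.06. With TPM as deposited these counts were 7 and 4, where 1768 of 22581 genes were higher and 6037 lower. Without the library labelled shRNA-RUS replicate 4 they were 14 and 4, where 3929 of 22583 genes were higher and 4593 lower. Gadd45a, a growth arrest and DNA damage gene, was 1.83-fold higher (log2 0.87, adjusted p = 0.0011) and Map1lc3b, an autophagosome protein, 0.71 higher on the log2 scale (adjusted p = 3.53e-05). Klf2, a transcription factor at a mean of 1.37 TPM, was 0.78 higher (adjusted p = 0.0266) and lost the call in 8 of 18 alternatives. The decreases were led by Pmaip1, an apoptosis gene that encodes Noxa, at 0.476 times the control level (log2 −1.07, adjusted p = 6.90e-05). Prdx3, a mitochondrial peroxidase, was at −0.43 (adjusted p = 0.000222). Ddit4, an inhibitor of mTOR, was at −0.36 (adjusted p = 0.0397) and lost the call in 9 of 18 alternatives, among them the fit without the library labelled shRNA-RUS replicate 4 (−0.26, adjusted p = 0.0522).

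On day 7, 28 of the other FoxO target genes were tested, of which 19 were called higher and 5 lower (list median 0.47), beside 23.4% and 25.8% of all genes and a median of −0.03. The counts were 18 to 20 higher and 4 to 5 lower with the other 3 scalings, where 4888 to 6061 of all genes were higher and 6019 to 6812 lower. Pdk4, a kinase that shuts down pyruvate dehydrogenase, was 2.93-fold higher (log2 1.55, adjusted p = 3.28e-07), Gadd45a 2.78-fold (log2 1.48, adjusted p = 2.48e-05), and Bbc3, the apoptosis gene that encodes Puma, was 0.94 higher on the log2 scale (adjusted p = 0.000228). Pmaip1 (log2 −0.90, adjusted p = 1.02e-05), Prdx3 (−0.65, adjusted p = 6.08e-07) and Sod2, the mitochondrial superoxide dismutase (−0.43, adjusted p = 0.00255), were called lower. The apoptosis genes Bbc3 and Pmaip1 thus differed in direction. In the control cells, 8 of 27 tested genes of this list were called higher on day 7 than on day 5 and 10 lower (list median −0.02), beside 26.9% and 21.6% of all genes. The balance turned with the scaling, to 11 higher and 6 lower on the TPM as deposited, 10 and 8 with the 75th percentile and 9 and 8 after quantile normalization. As deposited, 8573 of all genes were called higher and 3434 lower. In the test of the difference between the days, 12 passed as higher and 3 as lower, beside 15.2% and 14.6% of all genes. These were 16 and 0 on the TPM as deposited, where 5700 of all genes were called higher and 2053 lower. They were 10 and 4 without the library labelled shRNA-RUS replicate 4 of day 5. When 1 library was left out, 3075 to 4392 of all genes were called higher and 3063 to 3900 lower.

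**Figure D4:**
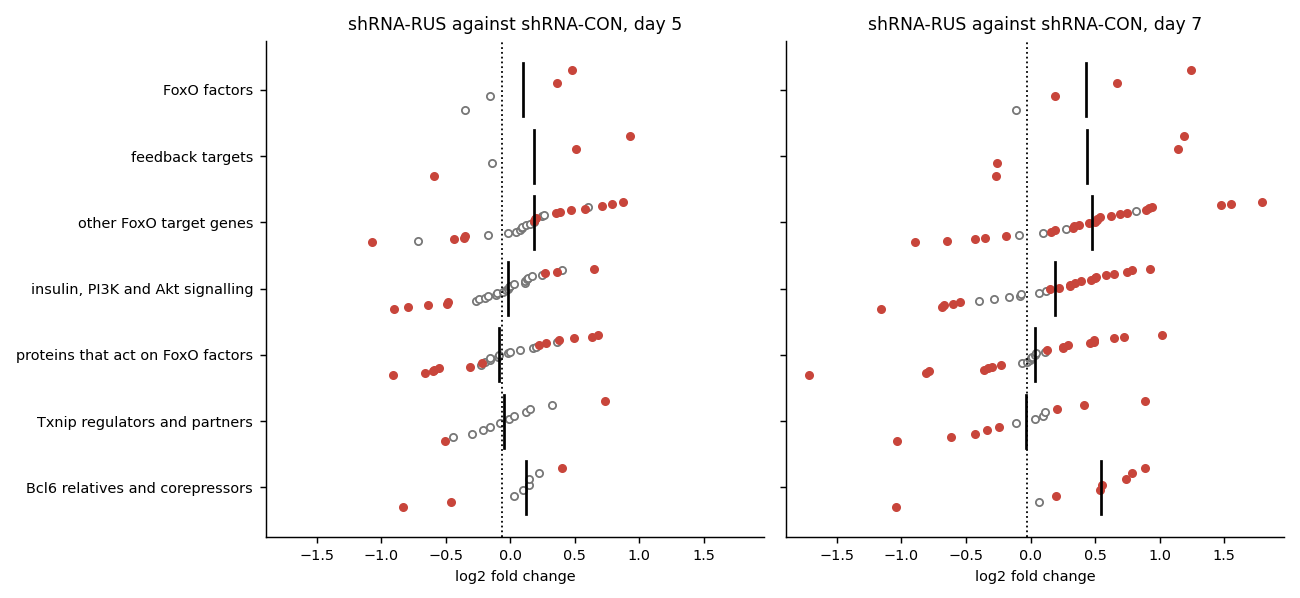
Log2 fold changes of shRNA-RUS against shRNA-CON for the genes of 7 lists, day 5 on the left and day 7 on the right. Red points have an adjusted p under 0.05, open points do not, black bars are list medians and the dotted line is the median of all genes tested. The bar of the other FoxO target genes lies at 0.18 on day 5 and 0.47 on day 7, and that of the proteins that act on FoxO factors at −0.09 and 0.04.

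Among 25 proteins that act on FoxO factors (adaptors, exporters, ubiquitin ligases, deacetylases, acetyltransferases and kinases), all were tested and the directions were mixed. On day 5, 6 were called higher and 7 lower (list median −0.09), and on day 7, 10 higher and 7 lower (list median 0.04). Of all genes, 14.8% were higher and 17.9% lower on day 5, and 23.4% and 25.8% on day 7. On the TPM as deposited the day 5 counts were 4 and 11, and without the library labelled shRNA-RUS replicate 4 they were 7 and 9. All genes then stood at 1768 higher and 6037 lower, and at 3929 and 4593. Ywhag and Ywhae encode adaptors that hold phosphorylated FoxO factors outside the nucleus, and they moved apart. Ywhag was 0.68 higher on day 5 (log2, adjusted p = 3.09e-05) and 1.02 higher on day 7 (adjusted p = 1.22e-07), and Ywhae fell by 0.78 on day 7 (log2, adjusted p = 2.54e-07). Stk4, a kinase that promotes nuclear entry of FoxO factors, was higher on both days (log2 0.63, adjusted p = 0.000417, and 0.73, adjusted p = 1.16e-06). Sirt3, a mitochondrial deacetylase, was 0.49 higher on day 5 (adjusted p = 0.000537), and Crebbp, an acetyltransferase, 0.65 higher on day 7 (adjusted p = 2.32e-05). Cdk1, the mitotic kinase, was lower on both days (log2 −0.91, adjusted p = 1.59e-05, and −1.72, adjusted p = 6.95e-07), as was Skp2, a subunit of the ubiquitin ligase that marks Foxo1 protein for degradation (−0.66, adjusted p = 0.000868, and −0.81, adjusted p = 4.29e-06). Prkaa2, a catalytic subunit of AMP kinase, was at −0.60 on day 5 (adjusted p = 0.0132).

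For Txnip, 12 regulators and partners were tested. On day 5, 1 was called higher and 1 lower (list median −0.05), and on day 7, 3 higher and 5 lower (list median −0.04). The shares of all genes were 14.8% and 17.9% on day 5, and 23.4% and 25.8% on day 7. On the TPM as deposited the day 5 counts were 1 and 5, and without the library labelled shRNA-RUS replicate 4 they were 1 and 3. All genes then stood at 1768 higher and 6037 lower, and at 3929 and 4593. Txn2, the mitochondrial thioredoxin, was 0.74 higher on day 5 (log2, adjusted p = 9.77e-05) and 0.41 higher on day 7 (adjusted p = 3.01e-05). Txn1, the cytosolic thioredoxin that Txnip binds, was −0.62 on day 7 (adjusted p = 1.10e-06), and Txnrd1, which reduces it, was 0.21 higher (adjusted p = 0.00153). The close relatives of Txnip went opposite ways on day 7, with Arrdc3 at 0.88 (adjusted p = 2.16e-07) and Arrdc4 at −0.43 (adjusted p = 6.77e-05). Slc2a3, a neuronal glucose transporter, was lower on both days (log2 −0.51, adjusted p = 0.00107, and −0.33, adjusted p = 0.00148).

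For Bcl6, 8 relatives and corepressors were tested. On day 5, 1 was called higher and 2 lower (list median 0.12), and on day 7, 6 higher and 1 lower (list median 0.55). These stand beside 14.8% and 17.9% of all genes on day 5 and 23.4% and 25.8% on day 7. Without the library labelled shRNA-RUS replicate 4 the day 5 counts were 2 higher and 1 lower, where 3929 of 22583 genes were higher and 4593 lower. Nacc1, a corepressor of the same domain family, was higher on both days (log2 0.40, adjusted p = 0.00111, and 0.74, adjusted p = 4.15e-06). Bcor, the corepressor named for its binding to Bcl6, was lower on day 5 (log2 −0.46, adjusted p = 0.00141) and higher on day 7 (0.20, adjusted p = 0.0147, a call lost with the 75th percentile at 0.14), and its effect differed between the days by 0.65 (adjusted p = 6.39e-05). Zbtb16, a relative of Bcl6, was 0.79 higher on day 7 (log2, adjusted p = 6.54e-05).

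The genes whose pattern over the 16 libraries was most like that of each member were ranked by Pearson's r of log2 levels among 15898 genes that averaged 1 TPM or more. The 4 groups make up most of the pattern, so the values are a description. For Foxo3 they were Zhx3 (r = 0.99), Tpcn1 (0.99) and Castor2 (0.99), for Pik3ip1 Zbtb22 (0.99), Slc39a3 (0.99) and Zfp651 (0.99), and for Bcl6 Cdh4 (0.99), Ank (0.99) and Zcchc24 (0.99). For Txnip they were Pdia4 (0.98), Idh3a (0.98) and Car12 (0.98), for Foxo4 Myo6 (0.98), Zfp30 (0.98) and Arl8a (0.97), and for Irs2 Vac14 (0.96), Ascc2 (0.96) and Parp1 (0.96). The likeness was lowest for Foxo1, with Csmd1 (0.92), Gm47761 (0.91) and Ptpn14 (0.89), and for Foxo6, with Gm13889 (0.95), Fbxl14 (0.91) and Vax1 (0.91). No member stood among the 3 genes most like another member.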

How the data were processed

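PolyA RNA was sequenced by the authors (NextSeq), who aligned reads with STAR to mm10 with the GRCm38.99 transcripts and quantified them with RSEM. They deposited TPM for each library, in 1 table per day, beside the results of their own DESeq2 comparison (fold changes and p-values), which were not used. TPM keep no read depth, so depth is unknown and limits low genes. Library sums were 999999.3 to 1000000.7.

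Here, TPM were divided by median-ratio library factors, 0.1 was added before log2, and genes that averaged 0.1 TPM or more were fitted with limma 3.58.1 in R 4.3.3 (lmFit, eBayes with trend, two-sided, Benjamini-Hochberg, 0.05). Fold changes are on that log2 scale and understate changes of low genes. Knockdown comparisons used the 8 libraries of a day, and the comparison of days and the interaction used 16. The 16-library fits left out 106 lines whose symbol differed between the tables or was missing, as it was on 3 lines of day 5. RUS was tested by exact permutation in Python 3.11.15 with scipy 1.17.1. The fit was tested on simulated data. The members and the gene lists were chosen with earlier results of these data known, so counts over lists are a description. Named list genes are the 3 largest increases and decreases per list and day among called genes that averaged 1 TPM or more, and 1 of them, counted but not named, is not reported here. Gene positions come from GENCODE vM21 (GRCm38), another release than the authors used. Alternatives were other pseudocounts, filters, scalings, no trend, a replicate block, 1 fit over 16 libraries and leaving out each library.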

Additional observations from a re-analysis of the deposited data

Results flagged for a closer look

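For 4 of the 8 genes the knockdown effect differed between day 5 and day 7 by the interaction test (limma, adjusted p): Foxo3 by 0.75 on the log2 scale (1.04e-05), Bcl6 by 0.62 (0.000275), Foxo1 by 0.34 (0.0147) and Irs2 by 0.31 (0.00951). The levels behind these values are given above.

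Of 37 named genes of the lists, 25 also differed between the days, where 15.2% of all genes were called higher and 14.6% lower. These 37 were chosen as the largest called changes of 1 day or the other, so nothing is read from their count. The effect was higher on day 7 for the target genes Pdk4 (0.96 on the log2 scale) and Gadd45a (0.59). The same held for Insr (0.80), Pik3r1 (0.71), Phlpp1 (0.63), Akt2 (0.26) and Akt1 (0.23) of the signalling list, and for Crebbp (0.65), Ywhag (0.33), Arrdc3 (0.55) and Txnrd1 (0.27). It also held for Bcor (0.65), Zbtb16 (0.63) and Nacc1 (0.33). The effect was lower on day 7 for Cdk1 (−0.82), Txn1 (−0.75), Igf1 (−0.72), Inpp5d (−0.68), Sod2 (−0.54), Pik3r3 (−0.49), Txn2 (−0.34), Sirt3 (−0.25), Prdx3 (−0.22) and Ywhae (−0.21). Adjusted p lay between 6.98e-06 for Pdk4 and 0.0485 for Akt1. Higher and lower refer here to signed effects. Insr and Pik3r1 were lower on day 5 and not called on day 7, while Txn2 and Sirt3 rose less on day 7.

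Among the 36 groups of 4 libraries of the 8 genes and RUS, 0 had a library that stood far from the other 3 by Dixon's test, where chance flags about 1 in 20.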

How the results depend on the processing

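The 5 genes called in both knockdown comparisons kept their direction under every alternative, and kept their calls except for Foxo4 on the day 5 TPM as deposited. On day 5, 2 members were called lower when only genes that averaged 1 TPM or more were tested, on TPM as deposited, after quantile normalization, with scaling to the 75th percentile and in 1 fit over the 16 libraries, and 1 to 3 when a library was left out. All genes called higher on day 5 fell to 1768 on TPM as deposited. In the comparison of days, 1 member was called higher and 2 lower on TPM as deposited, 3 lower with the 75th percentile, and 3 to 5 lower when a library was left out. Txnip turned to 0.0048 there after quantile normalization. For the difference between the days, 5700 genes were called higher and 2053 lower on TPM as deposited, and 0 to 1 member was called lower when a library was left out. The share of RUS lay at 32.9% to 94.7% on day 5 and 25.2% to 57.7% on day 7 when a library was left out.

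With the replicate number as a block, 2231 genes were called higher on day 5, and no call of a member was lost or gained in the knockdown comparisons. Same-numbered libraries of the 2 shRNAs correlated at −0.23 to −0.02 on day 5 and 0.02 to 0.11 on day 7. On day 7 the mean correlations with other numbers were −0.04 to −0.01. Such weak values cannot settle whether the numbers pair the libraries. Depth is unknown, and Foxo6, at under 6 scaled TPM, had the widest intervals.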
